A study of Mus musculus with 9 samples.

Results

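The 93 genes described here encode the machinery of oxidative phosphorylation in mouse erythroblasts, and they were chosen by symbol from the 23285 genes measured. A gene entered if its row held 1 symbol and that symbol began with Ndufa, Ndufb, Ndufc, Ndufs, Ndufv, Uqcr, Uqcc, Cox4, Cox5, Cox6, Cox7, Cox8 or Atp5, or was Sdha, Sdhb, Sdhc, Sdhd, Cyc1 or Cycs. Sorted by symbol alone, complex I supplied 42 of them, complex II 4, complex III 10, cytochrome c 1, complex IV 19 and the ATP synthase 17. Every Nduf symbol was placed in complex I in this way, Ndufa4 and Ndufa4l2 included, and whether each protein belongs to that complex was not checked. The symbols matched 85 subunit genes and 8 genes for other proteins. Those 8 are the assembly factors Ndufaf1, Ndufaf2, Ndufaf3, Ndufaf4 and Uqcc, the coupling factor gene Atp5s, Atp5sl, and Cox4nb, which encodes a subunit of a membrane protein complex of the endoplasmic reticulum.

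All libraries came from immature erythroid cells of C57BL/6 mouse bone marrow that carried Trim28 alleles flanked by loxP sites. TRIM28 is a corepressor that KRAB zinc finger proteins recruit to chromatin. KOa cells were mutant cells with Mx1Cre sorted as CD71-high and TER119-positive, and 5 to 8% of their Trim28 gene remained undeleted. KOb cells were mutant cells with Mx1Cre sorted as CD71-high and TER119-negative, with 1 to 4% of the gene undeleted. FFa, the control, were CD71-high TER119-positive cells from floxed mice with no Cre in their labels. Mx1Cre is switched on by interferon in many cell types, and the mutant mice had received 5 doses of poly(I:C), ending 2 weeks before analysis. The labels used here leave unstated whether FFa mice were injected. Between mutants and FFa, deletion and Cre cannot be told apart. KOb also differs from FFa in the TER119 gate, so in each KOb against FFa ratio deletion and the stage sorted cannot be told apart, and between KOb and KOa the same holds for the gate and the extent of deletion.

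The respiratory chain sits in the inner mitochondrial membrane. Complexes I and II pass electrons from NADH and succinate to ubiquinone, complex III passes them on to cytochrome c, and complex IV reduces oxygen. Complexes I, III and IV pump protons, and the ATP synthase uses the resulting gradient to make ATP. Most subunits are nuclear genes, as all 93 here are, and a smaller set is encoded by mitochondrial DNA and was not analysed here. Erythroblasts use their mitochondria for heme synthesis as well, and clear them as they become reticulocytes.

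The authors' deposited table holds 1 FPKM value per gene and group (fragments scaled by transcript length and by mapped fragments), pooled over the 3 libraries of that group, so neither a spread over libraries nor the depth of a library is known. A gene was called where the q-value in that table was below 0.05. The ± after a log2 ratio is the standard error implied by the deposited test statistic. Trim28 itself stood at 6.64 FPKM in KOa and 4.76 FPKM in KOb, against 26.0 FPKM in FFa. Globin genes held 76.3% of summed FPKM in KOa and 53.3% in KOb, against 64.6% in FFa. The 12 granulocyte markers, none at 0 in any group, summed to 16599.6 FPKM in KOa and 13449 FPKM in KOb, against 48866 FPKM in FFa. They did not all move alike: against FFa, 2 were called higher and 4 lower in KOa, and 2 higher and 6 lower in KOb. The 10 B cell markers, also all above 0, summed to 22.5 FPKM in KOa and 21.2 FPKM in KOb, against 240.6 FPKM in FFa. The 11 macrophage and monocyte markers in the table summed to 161 FPKM in KOa and 133 FPKM in KOb, against 444 FPKM in FFa, and the 9 megakaryocyte markers to 70.4 FPKM in KOa and 56.8 FPKM in KOb, against 39.3 FPKM in FFa. Of the 7 megakaryocyte markers tested against FFa, 3 were called higher and 1 lower in KOa, and 3 higher and 2 lower in KOb. The 8 erythroid markers summed to 4311 FPKM in KOa and 2734 FPKM in KOb, against 5315 FPKM in FFa. Of these 8, 1 was called higher and 1 lower in KOa, and 1 higher and 3 lower in KOb. Over all tested genes 7.99% were higher and 14.1% lower in KOa, and 12.8% higher and 15.2% lower in KOb. In such bulk samples fewer cells of a type and less RNA per cell cannot be told apart, and the part of these other cells in the results that follow was not tested.

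Oxidative phosphorylation genes were among the abundant transcripts of all 3 groups. Of the 93 genes, 75 in KOa, 74 in KOb and 73 in FFa reached 10 FPKM. Their summed FPKM was 10910 in KOa and 9848 in KOb, against 11369 in FFa. As a share of FPKM outside the globins this came to 3.61% in KOa and 3.20% in KOb, against 2.59% in FFa. The share was higher in both mutants while the sum was lower, because the FPKM total outside the globins was 302378 in KOa and 308022 in KOb, against 438557 in FFa.

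**Figure D1:**
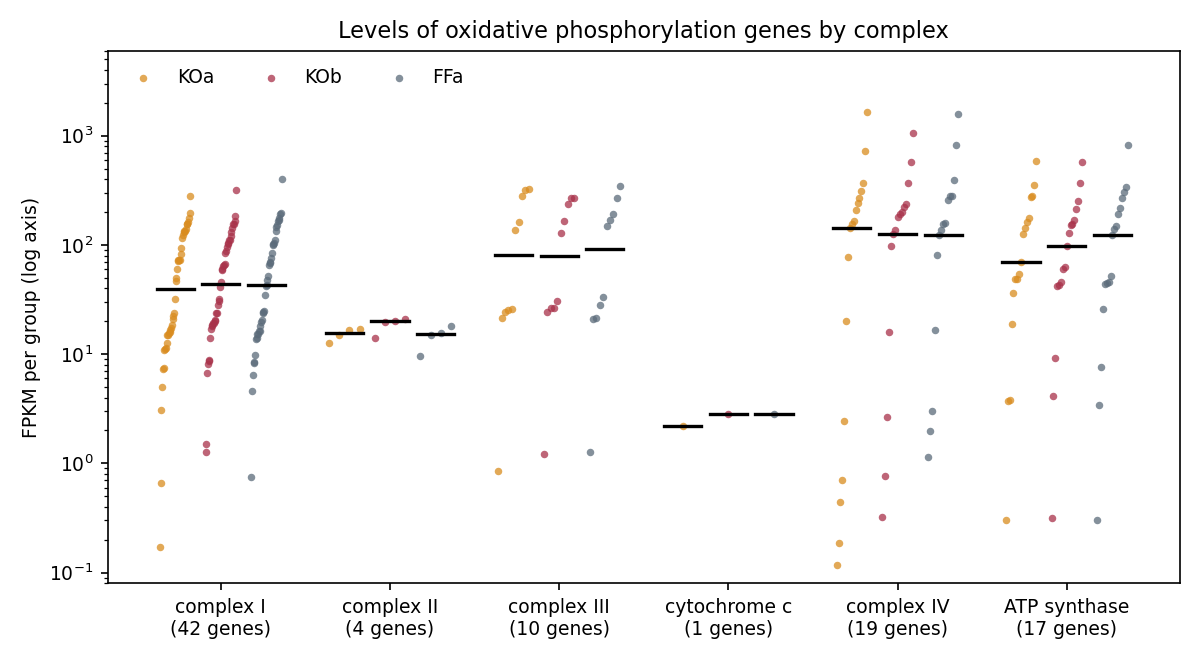
FPKM of each oxidative phosphorylation gene in KOa, KOb and FFa (log axis, 1 point per gene and group, pooled over 3 libraries), by complex, with the median as a black bar; values below 0.1 FPKM are not drawn. Complex II genes lie close together between 9.56 and 21.0 FPKM, whereas complex IV reaches 1637 FPKM in KOa.

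Levels spanned a far wider range between genes than between groups. FPKM is scaled by length, so levels of different genes are set side by side here. Length and level still went together among the tested members, with a Spearman correlation of -0.50 in FFa. Pseudogene copies matched 21 members. The part of mRNA length and of such copies in the differences between genes was not tested. The 4 complex II genes, which encode succinate dehydrogenase, had medians of 15.8 FPKM in KOa and 19.9 FPKM in KOb, against 15.4 FPKM in FFa. Complex IV had medians of 143 FPKM in KOa and 125 FPKM in KOb, against 124 FPKM in FFa. Cycs, the somatic cytochrome c gene, was listed at 2.19 FPKM in KOa and 2.83 FPKM in KOb, against 2.81 FPKM in FFa, below all 4 complex II genes; 3 pseudogene transcripts are near-identical to Cycs and none to a complex II gene. Cox6a1, a regulatory subunit of complex IV, was the most abundant member, with 1637 FPKM in KOa and 1065 FPKM in KOb, against 1570.0 FPKM in FFa. It alone made up 37.9% of complex IV FPKM in KOa and 31.2% in KOb, against 36.6% in FFa.

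In most members no change was called. The authors' deposited table holds a completed test for 87 members in each mutant against FFa and for 86 in KOb against KOa; 24 of the 93 were called in at least 1 comparison, 62 were tested in all 3 and called in none, 6 were tested in none and Cox7a1 was called in none but not tested in KOb against KOa. In KOa against FFa, 5 of 87 rose and 8 fell. Among all 10761 genes tested there, 7.99% rose and 14.1% fell, and among those with at least 10 FPKM in 1 group 13% rose and 15.4% fell. In KOb against FFa, 6 of 87 rose and 7 fell, beside 12.8% and 15.2% of all tested genes and 15.2% and 21.3% of those with at least 10 FPKM. In KOb against KOa, 10 of 86 rose and 2 fell, beside 10% and 6.19% of all tested genes and 10.8% and 14.7% of those with at least 10 FPKM. The members' shares in these 3 comparisons, 5.75% and 9.20%, 6.90% and 8.05%, and 11.6% and 2.33%, were thus lower than those of all tested genes, except that rises in KOb against KOa were near that share.

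The ratios of the members were centred close to those of all genes. Over the members, the log2 ratios had a median of -0.07 in KOa against FFa and -0.01 in KOb against FFa, where the medians of all tested genes were -0.08 and -0.01. In KOb against KOa it was 0.06, and 0.05 over all tested genes. The distance between the lower and upper quartile was 0.44, 0.50 and 0.54 in the 3 comparisons, against 0.72, 0.83 and 0.66 over all tested genes. Among tested genes with at least 10 FPKM in 1 group the medians were -0.006, -0.05 and -0.07 and these distances 0.57, 0.71 and 0.56, so in KOb against KOa the members' spread was close to that of abundant genes. The implied 95% interval of a ratio stayed within a 2-fold change either way for 69 of 87 members in KOa against FFa (79.3%), 72 of 87 in KOb against FFa (82.8%) and 67 of 86 in KOb against KOa (77.9%). The same held for 35.8%, 33.2% and 38.7% of all genes tested, and for 63.5%, 55.8% and 66.0% of those with at least 10 FPKM in 1 group. Both mutant comparisons share the FFa libraries. Scaling instead to the FPKM sum outside the globins moves every gene alike. It takes the members' median from -0.07 to 0.47 in KOa against FFa and from -0.01 to 0.50 in KOb against FFa. Rises and falls against FFa are therefore given on the deposited scale. In KOa the falls of Ndufb7 (log2 -0.44), Atp5k (-0.47) and Ndufb9 (-0.49) are smaller than that shift and change sign on the other scale. All 7 falls called in KOb, from -0.46 (Ndufb9) to -0.56 (Ndufb7), are close in size to the shift and nearly vanish on the other scale. Those of Ndufb9 and Atp5k change sign there. Of the 38 calls in the 3 comparisons, 14 remained when the deposited statistic was read as standard normal and its p adjusted over all tested results, and none of the 6 rises in KOb against FFa did. The implied 95% interval spans 0 for 4 of the 38, Sdhc and Atp5c1 in KOb against FFa and Ndufa9 and Ndufs8 in KOb against KOa.

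**Figure D2:**
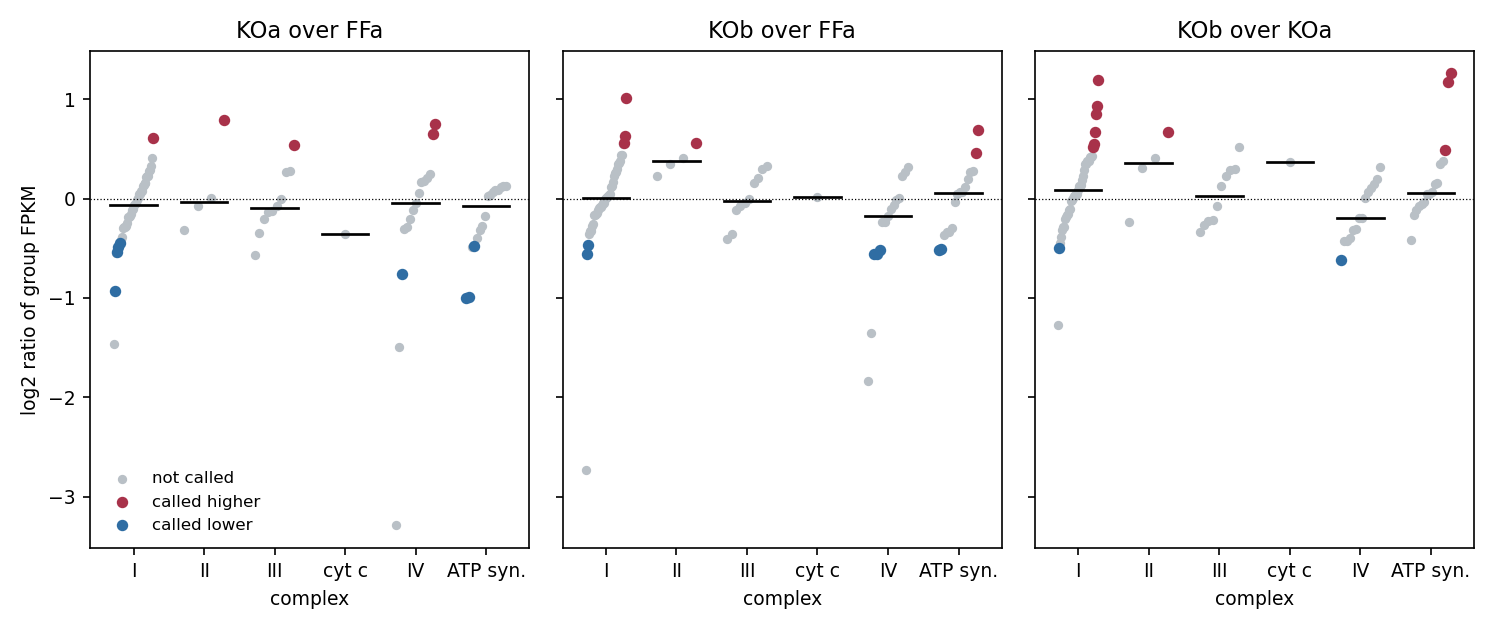
Log2 ratio of group FPKM for each tested member, by complex, in KOa over FFa, KOb over FFa and KOb over KOa, from the authors' deposited table; red points were called higher and blue points lower (q below 0.05), grey points were not called, and black bars are medians. Most points lie near 0, complex II lies above 0 in KOb over FFa with a median of 0.38, and the calls in KOb over KOa are 10 higher and 2 lower.

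Among the 42 complex I genes, the core subunits carry the electron path. The 6 of them with a readable locus all had positive log2 ratios in KOb against FFa, with a median of 0.29, but 1 was called. That one was Ndufs3, a core subunit of the arm that faces the matrix, at 11.3 FPKM in KOa and 20.4 FPKM in KOb, against 13.9 FPKM in FFa. KOb stood above the other groups, and the authors' deposited table gives log2 0.56 ± 0.28 (q = 0.0346) against FFa and 0.85 ± 0.29 (q = 0.000619) against KOa. Ndufs8, a core subunit that holds iron-sulfur clusters, had 22.3 FPKM in KOa and 31.8 FPKM in KOb, against 24.8 FPKM in FFa, and was called in KOb against KOa alone (log2 0.51 ± 0.27, q = 0.0321, in the authors' deposited table). For Ndufs1, the largest core subunit, values were 7.43 FPKM in KOa and 8.71 FPKM in KOb, against 6.41 FPKM in FFa (q = 0.0829 for KOb against FFa in the authors' deposited table). Ndufs7, the remaining core subunit, cannot be read, because its row shares a merged locus of 672 kb with Atp5d and overlaps 45 other genes, and the implied standard error of its ratio in KOb against FFa was 1.74.

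The other subunit genes placed in complex I by symbol, most of them for accessory subunits that surround the core, moved in both directions. In KOa against FFa 4 of the 30 tested fell and 1 rose, and in KOb against FFa 2 fell and 1 rose. Over all tested genes 14.1% fell and 7.99% rose in KOa, and 15.2% fell and 12.8% rose in KOb. Ndufb7 had 130.1 FPKM in KOa and 120.0 FPKM in KOb, against 177 FPKM in FFa, so both mutants were below FFa by similar amounts. The authors' deposited table gives log2 -0.44 ± 0.19 (q = 0.0473) for Ndufb7 in KOa and -0.56 ± 0.19 (q = 0.00839) in KOb, each against FFa. Ndufb9 showed the same order, with 140.3 FPKM in KOa and 143 FPKM in KOb, against 197 FPKM in FFa, and fell in both (log2 -0.49 ± 0.21, q = 0.0257, and -0.46 ± 0.21, q = 0.0354, in the authors' deposited table). Ndufa3 had 278 FPKM in KOa and 315 FPKM in KOb, against 405 FPKM in FFa, and was the most abundant complex I gene in all 3 groups. It fell in KOa (log2 -0.54 ± 0.14, q = 0.0136), while the ratio in KOb was -0.36 ± 0.13 (q = 0.122) in the authors' deposited table.

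Ndufa10, an accessory subunit attached to the membrane arm, was low in KOa alone. It had 7.36 FPKM in KOa and 14.1 FPKM in KOb, against 14.0 FPKM in FFa. The authors' deposited table gives log2 -0.93 ± 0.31 (q = 0.00115) in KOa against FFa, 0.01 ± 0.29 (q = 0.987) in KOb against FFa and 0.94 ± 0.31 (q = 0.000619) in KOb against KOa. Ndufb4 went the other way, with 155 FPKM in KOa and 110.2 FPKM in KOb, against 101 FPKM in FFa. KOa stood apart for it as well, and it rose in KOa against FFa (log2 0.61 ± 0.18, q = 0.0058) and was lower in KOb than in KOa (log2 -0.49 ± 0.19, q = 0.029) in the authors' deposited table. Ndufb6 rose in KOb, to 23.7 FPKM, with 18.6 FPKM in KOa, against 15.3 FPKM in FFa (log2 0.63 ± 0.25, q = 0.04, for KOb against FFa in the authors' deposited table). Ndufa9 and Ndufb5 were called in KOb against KOa alone. Ndufa9 had 12.6 FPKM in KOa and 18.5 FPKM in KOb, against 15.3 FPKM in FFa, and Ndufb5 14.9 FPKM in KOa and 23.7 FPKM in KOb, against 18.2 FPKM in FFa, so FFa lay between the mutants for both genes. Ndufs5 had 3.08 FPKM in KOa and 1.28 FPKM in KOb, against 8.47 FPKM in FFa, but its locus overlaps another gene of the table and the log2 ratio of -2.73 ± 1.80 in KOb against FFa had q = 0.0765 in the authors' deposited table.

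Of the 4 complex I assembly factors, Ndufaf4 was called. It stood at 0.659 FPKM in KOa and 1.51 FPKM in KOb, against 0.748 FPKM in FFa, a low level in every group. KOb was above both other groups, with log2 1.01 ± 0.47 (q = 0.00839) against FFa and 1.19 ± 0.48 (q = 0.00248) against KOa in the authors' deposited table. Ndufaf1 had 4.99 FPKM in KOa and 6.69 FPKM in KOb, against 4.57 FPKM in FFa, and Ndufaf2 and Ndufaf3 were not called either.

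Complex II links the citric acid cycle to the respiratory chain. In KOb against FFa all 4 of its genes had positive log2 ratios, with a median of 0.38, and summed to 61.2 FPKM in KOa and 74.9 FPKM in KOb, against 58.3 FPKM in FFa. Sdhc (chr1:171129157-171150603, mm10), a membrane anchor subunit, was the 1 member of the 93 that rose in both mutants, with 16.5 FPKM in KOa and 14.0 FPKM in KOb, against 9.56 FPKM in FFa. The authors' deposited table gives log2 0.79 ± 0.29 (q = 0.00248) in KOa and 0.55 ± 0.30 (q = 0.0306) in KOb, the implied 95% interval of the second running from -0.03 to 1.13. Sdhd, the other anchor, had 12.6 FPKM in KOa and 20.04 FPKM in KOb, against 15.8 FPKM in FFa, and differed between the mutants (log2 0.67 ± 0.29, q = 0.00443, in the authors' deposited table). The catalytic subunits were not called in any comparison. Sdha, which binds FAD, had 15.0 FPKM in KOa and 19.8 FPKM in KOb, against 15.0 FPKM in FFa (q = 0.0754 for KOb against FFa in the authors' deposited table), and Sdhb, which holds the iron-sulfur clusters, had 17.0 FPKM in KOa and 21.0 FPKM in KOb, against 18.0 FPKM in FFa.

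Complex III had 1 call in all 3 comparisons. Uqcrb, which encodes a small subunit near the ubiquinone site, had 278 FPKM in KOa and 239 FPKM in KOb, against 191 FPKM in FFa, and rose in KOa (log2 0.54 ± 0.19, q = 0.0113, in the authors' deposited table); 3 pseudogene transcripts are at least 95% identical to it. The abundant small subunits Uqcr10 and Uqcrh did not pass the test in KOb against FFa. Uqcr10 had 315 FPKM in KOa and 269.5 FPKM in KOb, against 345 FPKM in FFa (q = 0.139 for KOb against FFa), and Uqcrh had 161 FPKM in KOa and 128 FPKM in KOb, against 169.6 FPKM in FFa (q = 0.072), both from the authors' deposited table. The subunits with redox centres were lower in abundance: Cyc1 had 24.3 FPKM in KOa and 26.6 FPKM in KOb, against 28.02 FPKM in FFa, and the Rieske protein gene Uqcrfs1 had 26.0 FPKM in KOa and 30.6 FPKM in KOb, against 33.2 FPKM in FFa.

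Complex IV had the largest summed FPKM, 4322 in KOa and 3419.6 in KOb, against 4294 in FFa. The log2 ratio of this sum in KOb against FFa was -0.33, and -0.21 without Cox6a1. Its catalytic core is encoded by mitochondrial DNA, and the genes here, Cox4nb aside, encode the surrounding subunits. Of 15 tested, 3 fell (20%) and none rose in KOb against FFa, beside 15.2% falling and 12.8% rising over all tested genes. Without Cox4nb, 3 of 14 fell (21.4%). Among tested genes with at least 10 FPKM in 1 group, 21.3% fell and 15.2% rose. The authors' Cuffdiff test gave no complex IV rise in KOb against FFa at an unadjusted p below 0.05 either. Cox6a1 (chr5:115345654-115348955, mm10), with the levels given above, was low in KOb against both other groups (log2 -0.56 ± 0.19, q = 0.0164, against FFa and -0.62 ± 0.21, q = 0.0058, against KOa in the authors' deposited table). Cox6c had 720.4 FPKM in KOa and 580.4 FPKM in KOb, against 828 FPKM in FFa, and fell in KOb (log2 -0.51 ± 0.18, q = 0.0224, in the authors' deposited table). Cox8a, the ubiquitous form of subunit VIII, had 167 FPKM in KOa and 192 FPKM in KOb, against 282 FPKM in FFa, and fell in both mutants (log2 -0.76 ± 0.19, q = 0.000619, in KOa and -0.56 ± 0.19, q = 0.0124, in KOb, in the authors' deposited table). Cox7c showed the opposite order, with 268 FPKM in KOa and 199.9 FPKM in KOb, against 160.2 FPKM in FFa. It rose in KOa (log2 0.75 ± 0.18, q = 0.000619), and in KOb the log2 ratio was 0.32 ± 0.17 (q = 0.184) in the authors' deposited table.

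Where complex IV has tissue isoforms, the ubiquitous form carried nearly all the signal, with 1 exception. Cox4i1 had 366 FPKM in KOa and 368 FPKM in KOb, against 396 FPKM in FFa, while the lung form Cox4i2 had 0.0829 FPKM in KOa and 0.0652 FPKM in KOb, and was listed at 0 in FFa. Cox7a2 had 312 FPKM in KOa and 236 FPKM in KOb, against 278 FPKM in FFa, beside 0.118 FPKM in KOa and 0.322 FPKM in KOb, against 1.15 FPKM in FFa, for the muscle form Cox7a1. The muscle form Cox6a2 had 0.701 FPKM in KOa and 0.774 FPKM in KOb, against 1.98 FPKM in FFa, and Cox8b, Cox8c and Cox7b2 were at 0.445 FPKM or less in all groups. The exception was Cox6b2, known as the testis form of subunit VIb, with 242 FPKM in KOa and 179.6 FPKM in KOb, against 154 FPKM in FFa. That was close to its ubiquitous partner Cox6b1, which had 210.4 FPKM in KOa and 221 FPKM in KOb, against 260.2 FPKM in FFa. Cox6b2 rose in KOa (log2 0.65 ± 0.29, q = 0.00161), and Cox6b1 was not called (log2 -0.31 ± 0.18, q = 0.203), in the authors' deposited table. No other locus of the table overlaps Cox6b2 (chr7:4751794-4753094, mm10), and no pseudogene transcript matched it.

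**Figure D3:**
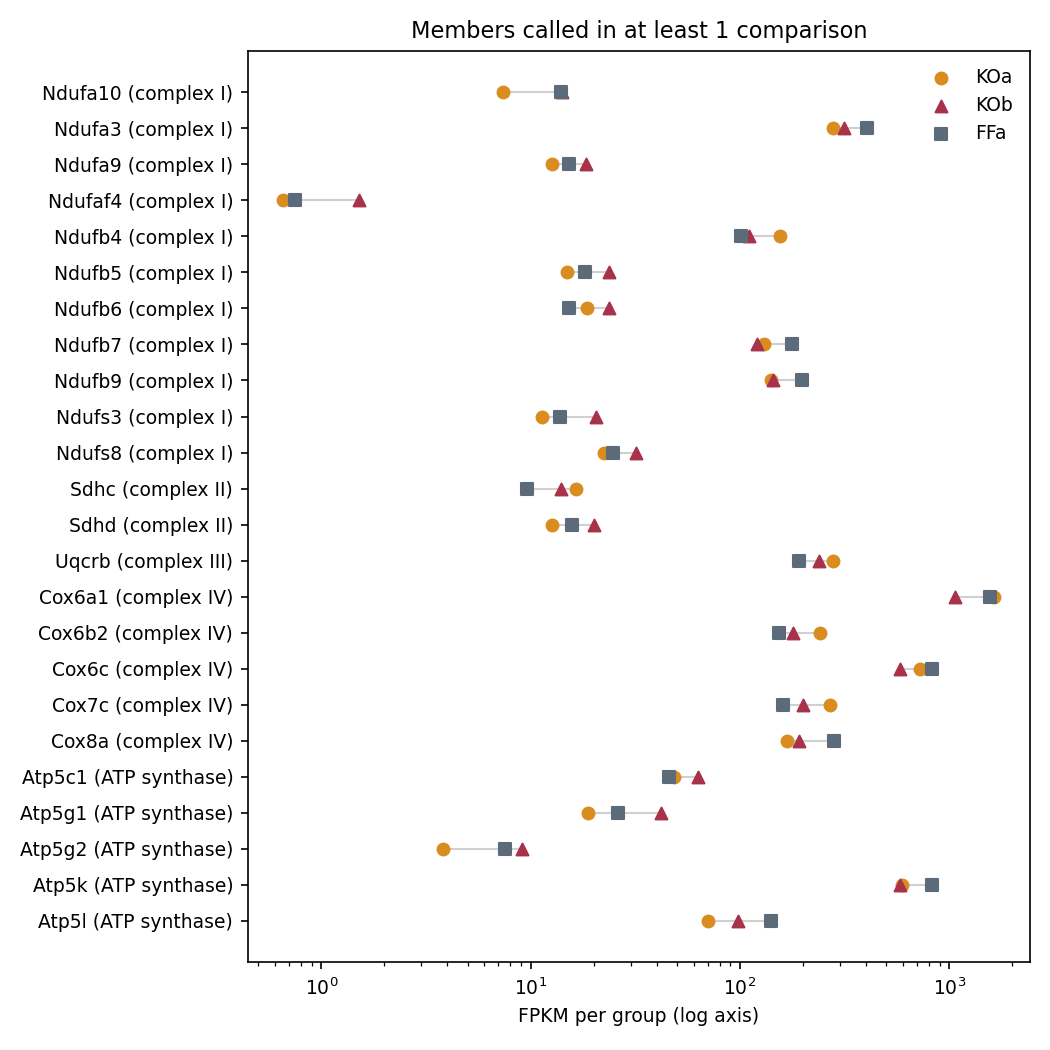
FPKM in KOa (circles), KOb (triangles) and FFa (squares) of the 24 members called in at least 1 comparison, on a log axis, pooled over 3 libraries each and ordered by complex. For Atp5g1, Atp5g2, Ndufa9, Ndufa10, Ndufaf4, Ndufb5, Ndufs3, Ndufs8 and Sdhd, FFa lies between KOa on the left and KOb on the right, although for Ndufa10 FFa and KOb nearly coincide.

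The ATP synthase summed to 2399 FPKM in KOa and 2381 FPKM in KOb, against 2786 FPKM in FFa. Its membrane part contains a ring of subunit c, whose mature protein is the same from the genes Atp5g1, Atp5g2 and Atp5g3, and members of this trio had some of the largest called differences between the mutants. Atp5g1 (chr11:96072793-96075694, mm10) had 18.7 FPKM in KOa and 42.1 FPKM in KOb, against 26.1 FPKM in FFa. It rose in KOb (log2 0.69 ± 0.32, q = 0.00328), was not called in KOa (log2 -0.48 ± 0.33, q = 0.0644), and differed between the mutants by 1.17 ± 0.33 (q = 0.000619) in the authors' deposited table. Atp5g2 (chr15:102662868-102671047, mm10) had 3.82 FPKM in KOa and 9.14 FPKM in KOb, against 7.58 FPKM in FFa. It fell in KOa (log2 -0.99 ± 0.40, q = 0.024), was not called in KOb (log2 0.27 ± 0.33, q = 0.523), and differed between the mutants by 1.26 ± 0.40 (q = 0.00548) in the authors' deposited table. Atp5g3 had 36.1 FPKM in KOa and 45.8 FPKM in KOb, against 43.8 FPKM in FFa, the same order as Atp5g2, and none of its ratios was called (q = 0.178 for KOb against KOa in the authors' deposited table). At least 1 pseudogene transcript with 95% identity over 200 bases matched Atp5g1 and Atp5g2, and none matched Atp5g3.

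Atp5k and Atp5l, which encode small membrane subunits of the ATP synthase, fell in both mutants. Atp5k, the gene of subunit e, was the most abundant of them, with 593 FPKM in KOa and 579 FPKM in KOb, against 824 FPKM in FFa. Its fall was log2 -0.47 ± 0.11 (q = 0.0358) in KOa and -0.51 ± 0.11 (q = 0.0237) in KOb, with the smallest implied standard errors of all members, in the authors' deposited table. Atp5l, the gene of subunit g, had 70.3 FPKM in KOa and 98.3 FPKM in KOb, against 140.5 FPKM in FFa. It fell in KOa (log2 -0.999 ± 0.20, q = 0.000619) and in KOb (log2 -0.51 ± 0.19, q = 0.0226), and was higher in KOb than in KOa (log2 0.48 ± 0.21, q = 0.0394) in the authors' deposited table. With 8 near-identical pseudogene transcripts, the most of any member, Atp5l is the one whose reads could most readily be split. Of the 5 genes of the catalytic F1 part, of which Atp5d lies in the merged locus of Ndufs7, Atp5c1 alone was called, with 48.4 FPKM in KOa and 62.7 FPKM in KOb, against 45.7 FPKM in FFa (log2 0.46 ± 0.30, q = 0.0397, in KOb against FFa in the authors' deposited table, with an implied 95% interval from -0.12 to 1.04). The catalytic subunit gene Atp5b had 358 FPKM in KOa and 369 FPKM in KOb, against 341 FPKM in FFa.

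The regulators of these genes were measured too. NRF1, a transcription factor known to bind promoters of many respiratory genes, was lower in both mutants at its own transcript: Nrf1 had 10.5 FPKM in KOa and 8.77 FPKM in KOb, against 17.8 FPKM in FFa (log2 -0.75 ± 0.31, q = 0.000619, in KOa and -1.02 ± 0.31, q = 0.000619, in KOb in the authors' deposited table). Myc, a growth regulator that also acts on mitochondrial genes, was low in KOa alone, with 6.20 FPKM in KOa and 13.5 FPKM in KOb, against 12.8 FPKM in FFa (log2 -1.05 ± 0.32, q = 0.000619, in KOa and 0.07 ± 0.31, q = 0.824, in KOb in the authors' deposited table). Of the 8 regulators tested these were the only ones called against FFa. The coactivator Ppargc1a was at 0.0496 FPKM or less in all groups and was not tested.

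RefSeq gives a promoter window for 76 members, read here over the 250 bases before the start (GRCm38.p6). The NRF1 motif GCGCANGCG, on either strand, was in 15 of the 76 windows (19.7%), and in 5.16% of all 32851 windows of that length. The ETS motif CCGGAAG, the core bound by GABP, was in 12 of 76 (15.8%) and in 6.91% of all windows, and the YY1 motif AAGATGGCG was in 1 of 76 (1.32%) and in 0.606% of all windows. Members with the NRF1 motif moved in both directions: Ndufaf4 rose in KOb, Cox6a1 fell in KOb, and Atp5k and Atp5l fell in both mutants. Ndufb4 rose and Atp5g2 fell in KOa, and the other members with the motif were not called against FFa. The motif was in 1 of 5 windows of members higher in KOb against FFa and in 3 of 5 windows of those lower. The Atp5g1 window holds none of the 3 motifs. For Ndufaf4, Cox6a1, Atp5l and Atp5g1 the longest stretch of the window outside annotated exons and the gene's own locus is shown. These stretches set the cases side by side, 5′ to 3′ on the gene's strand, with NRF1 and ETS matches in capitals. They cover chr4:24897833-24898082 (plus strand) for Ndufaf4, chr5:115348982-115349129 (minus strand) for Cox6a1, chr9:44920752-44920992 (minus strand) for Atp5l and chr11:96075695-96075881 (minus strand) for Atp5g1.
Ndufaf4: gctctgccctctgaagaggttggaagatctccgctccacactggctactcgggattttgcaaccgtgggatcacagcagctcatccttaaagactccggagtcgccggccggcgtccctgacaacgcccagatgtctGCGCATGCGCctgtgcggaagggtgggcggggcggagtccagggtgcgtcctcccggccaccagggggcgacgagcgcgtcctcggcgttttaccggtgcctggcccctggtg
Cox6a1: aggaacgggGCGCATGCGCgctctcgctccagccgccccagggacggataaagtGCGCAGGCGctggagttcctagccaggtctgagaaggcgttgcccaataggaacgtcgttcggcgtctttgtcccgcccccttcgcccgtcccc
Atp5l: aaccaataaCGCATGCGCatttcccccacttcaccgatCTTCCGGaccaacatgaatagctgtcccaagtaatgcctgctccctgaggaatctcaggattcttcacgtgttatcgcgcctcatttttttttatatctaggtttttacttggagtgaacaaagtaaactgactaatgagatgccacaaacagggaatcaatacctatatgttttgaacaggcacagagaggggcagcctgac
Atp5g1: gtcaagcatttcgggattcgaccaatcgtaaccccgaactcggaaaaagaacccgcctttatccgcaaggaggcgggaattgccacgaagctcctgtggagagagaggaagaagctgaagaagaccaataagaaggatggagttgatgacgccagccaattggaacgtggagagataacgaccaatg
A match here is a string of letters and not a measured binding site. Overlapping matches on the strands merge into 1 run of capitals, as in the NRF1 palindrome of Ndufaf4. Cox6a1 and Atp5l each show 2 such runs. The full Cox6a1 window holds 3, and its ETS match lies outside the bases shown.

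In KOb against FFa the members called lower had short mRNAs and most of those called higher had long ones. The members' annotated mRNAs run from 360 to 4942 bases, with a median of 865. These lengths are from GENCODE vM21, while the annotation behind the deposited FPKM is not known, so they may not apply to every row. The 1487 bases given for Ndufaf3, for example, exceed its locus in the deposited table (chr9:108565865-108567342). Atp5g1, among the longer members that rose, was given 2675.5 bases. Of the 42 tested members with shorter mRNAs, 7 fell and 1 rose (Ndufb6), with a median log2 ratio of -0.15, and of the 45 with longer mRNAs 5 rose and none fell, with a median of 0.12. The Spearman correlation of log2 ratio and mRNA length over these 87 genes was 0.46, a description over genes that share the same libraries. In KOa against FFa it was 0.09, with 7 falls and 3 rises among the shorter and 1 fall and 2 rises among the longer. Over all genes tested in KOa against FFa, 20.4% of the 432 shorter ones fell and 8.33% rose. Of the 8724 longer ones, 14.1% fell and 7.70% rose. Over all genes tested in KOb against FFa, the 427 with mRNAs below 865 bases had a median log2 ratio of -0.07 with 11.9% rising and 15.5% falling. The 8608 longer ones had a median of -0.005 with 13.2% rising and 15.3% falling. Among those with at least 10 FPKM in 1 group, 20.6% of the shorter and 19.7% of the longer fell. The 7 falls among the 42 shorter members were thus near the share of all shorter genes, while none of the 45 longer members fell. Length and level went together among these 87 members, with Spearman correlations of mRNA length and FPKM of -0.48 in KOa and -0.48 in KOb, against -0.50 in FFa. The members that fell in KOb had between 140.5 and 1570.0 FPKM in FFa, and those that rose had between 0.748 and 45.7 FPKM, although the FFa level is itself part of that ratio. The Spearman correlation of the ratio in KOb over FFa with the level in KOa, which did not enter that ratio, was -0.35 over the same genes.

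**Figure D4:**
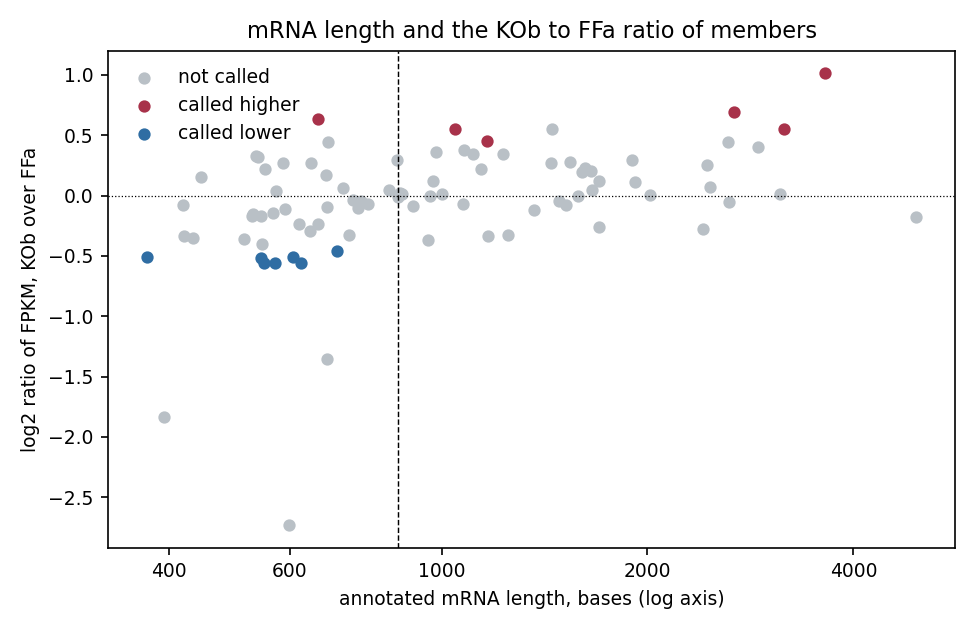
Log2 ratio of FPKM in KOb over FFa for the 87 tested members against annotated mRNA length in bases (log axis); red points were called higher, blue lower, grey not called, and the dashed line is the median of 865 bases. All 7 members called lower lie left of the dashed line, and 5 of the 6 called higher lie right of it.

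In other mitochondrial gene groups, the share of tested genes called higher in KOb against FFa was 56.5% for protein import and 37.5% for carriers and channels. It was 27.8% for the citric acid cycle and 19.2% for assembly factors that the symbol rule does not cover. For upkeep and transcription of mitochondrial DNA it was 9.09%, and for the regulators 0%, beside 6.90% of the members. These differences were not tested. Of 23 genes for protein import and inner membrane chaperones, 3 rose in KOa and 13 rose in KOb, each against FFa, beside 7.99% and 12.8% of all tested genes. Hspe1, a co-chaperonin of the matrix, had 73.8 FPKM in KOa and 162 FPKM in KOb, against 48.3 FPKM in FFa (log2 1.75 ± 0.23, q = 0.000619, in KOb in the authors' deposited table). Its partner Hspd1 had 3.65 FPKM in KOa and 11.4 FPKM in KOb, against 3.44 FPKM in FFa (log2 1.73 ± 0.33, q = 0.000619, in KOb in the authors' deposited table). Tomm5, a small subunit of the outer membrane translocase, had 1.36 FPKM in KOa and 4.72 FPKM in KOb, against 1.6005 FPKM in FFa (log2 1.56 ± 0.79, q = 0.0257, in KOb in the authors' deposited table). Of 18 genes of the citric acid cycle and pyruvate dehydrogenase, 1 rose and 2 fell in KOa and 5 rose in KOb, each against FFa. Falls were called for 14.1% of all tested genes in KOa and 15.2% in KOb, each against FFa. Idh3a, a subunit of isocitrate dehydrogenase, rose in both mutants, with 13.2 FPKM in KOa and 21.4 FPKM in KOb, against 8.05 FPKM in FFa.

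Of 8 carriers and channels that serve ATP synthesis, 1 fell in KOa (12.5%) and 3 rose in KOb (37.5%), each against FFa. The shares over all tested genes were 7.99% higher and 14.1% lower in KOa, and 12.8% higher and 15.2% lower in KOb. Slc25a5, an ADP/ATP carrier, had 98.5 FPKM in KOa and 152 FPKM in KOb, against 95.5 FPKM in FFa (log2 0.67 ± 0.25, q = 0.00115, in KOb in the authors' deposited table). Atpif1, the inhibitor of the ATP synthase and a factor in heme synthesis, had 2489.9 FPKM in KOa and 1677 FPKM in KOb, against 2282 FPKM in FFa, above every member of the respiratory chain, and was lower in KOb than in KOa (log2 -0.57 ± 0.22, q = 0.013, in the authors' deposited table). Among assembly factors that the symbol rule does not cover, 1 of 25 rose and 1 fell in KOa against FFa (4% each). In KOb against FFa 5 of 26 rose (19.2%) and 1 fell (3.85%). Apart from the rises in KOb, these shares lie below those of all tested genes. Tmem126b, an assembly factor of complex I, rose in both mutants, with 5.22 FPKM in KOa and 5.40 FPKM in KOb, against 2.67 FPKM in FFa. Cox17, the copper chaperone of complex IV, fell in both, with 123 FPKM in KOa and 115 FPKM in KOb, against 232 FPKM in FFa (log2 -0.91 ± 0.17 in KOa and -1.01 ± 0.17 in KOb, q = 0.000619 for each, in the authors' deposited table). Of 11 tested genes for upkeep and transcription of mitochondrial DNA, 1 rose and 1 fell in KOb against FFa (9.09% each, below the shares of all tested genes). The one that rose was Tfam, with 3.24 FPKM in KOa and 4.84 FPKM in KOb, against 3.37 FPKM in FFa.

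**Figure D5:**
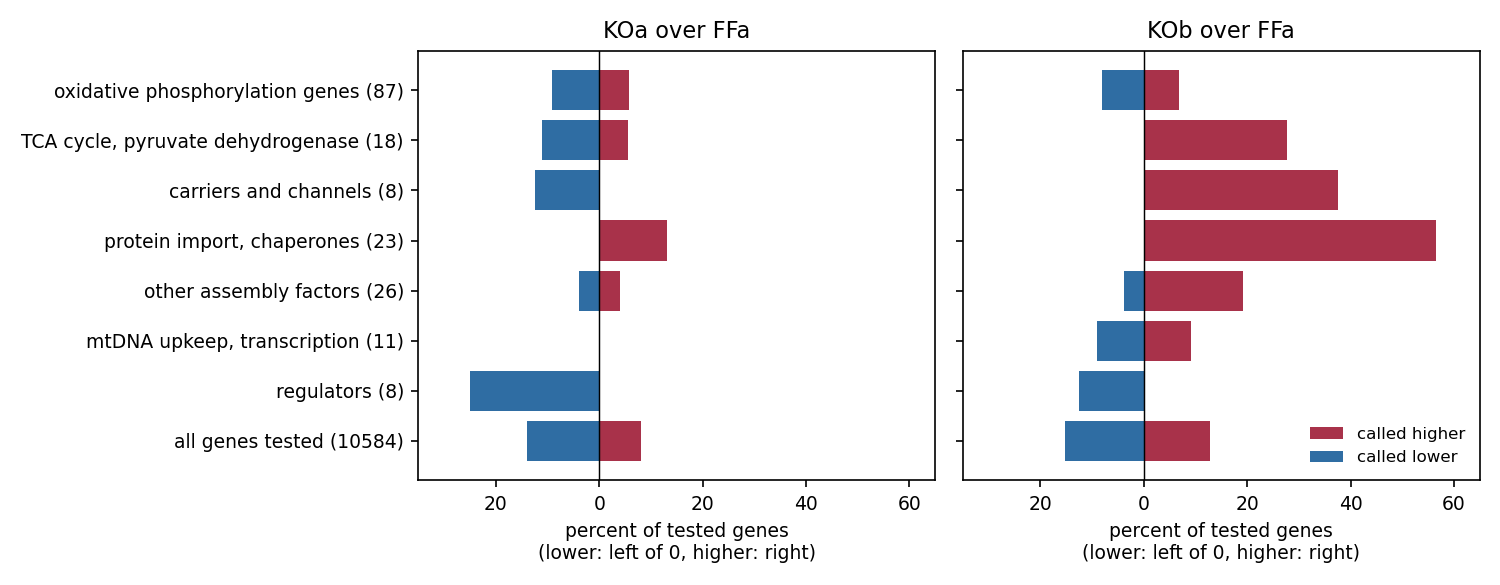
Percent of tested genes called higher (red, right of 0) and lower (blue, left of 0) in KOa over FFa and KOb over FFa, for the oxidative phosphorylation genes, 6 other mitochondrial lists and all genes tested; the number in parentheses is the number tested in KOb against FFa. Protein import and chaperone genes reach 56.5% called higher in KOb, where the oxidative phosphorylation genes reach 6.90%.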

How the data were processed

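The submitters' processing notes name Cuffdiff 2.1.1, TopHat2 2.0.8b and Bowtie2 2.1.0, and build mm10; annotation, filters and strand use were not given in the sources used here. FPKM values were deposited by the authors as 1 value per gene and group, pooled over 3 libraries, for 9 libraries in all. The log2 ratios, the test statistic (a score), the p-values and the q-values are the authors' deposited values. Values per library were not part of the table, so an SD, a count interval or a fit across libraries could not be had, and library depth is unknown. Since the labels name no separate mice for the 3 libraries of each group, p-values may measure technical spread.

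Genes were called at q below 0.05 with a completed Cuffdiff test, adjusted by the authors over all tested genes. The implied standard error is the log2 ratio divided by the statistic, and the 95% interval is normal on it. Sums, medians and counts were computed with Python 3.11.15, pandas 2.3.3 and scipy 1.17.1. A check on simulated normal statistics covered the interval, the adjustment and the calls. It did not cover the sums, the medians or the deposited p-values. Deposited and recomputed log2 ratios of members differed by at most 9.7e-06. mRNA lengths are medians of principal transcripts in GENCODE vM21, and pseudogene copies were found with blastn 2.17.0+ (at least 95% identity over 200 bases). Promoter windows are from RefSeq (GRCm38.p6), taking for each member the window nearest to its locus. The members, lists, motifs and tests were chosen with earlier results of these data known. Any member could be named; of other lists, up to 3 called genes of largest change per comparison, beside Nrf1, Myc, Atpif1, Cox17, Tfam and Ppargc1a, some of which were chosen after their values were seen. Alternatives were stricter q, the statistic read as normal, adjustment within a comparison, FPKM minima, other scalings, and leaving out non-subunits, the top member or members with pseudogene copies.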

Additional observations from a re-analysis of the deposited data

Results flagged for a closer look

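In all, 10 members were called in KOb against KOa while their log2 ratios against FFa pointed to opposite sides of 0 in the mutants, so the direct comparison of the mutants tests the difference itself. All values are from the authors' deposited table. KOb was higher for 9 of them. The log2 ratio of KOb over KOa was 1.26 for Atp5g2, 1.17 for Atp5g1, 1.19 for Ndufaf4, 0.94 for Ndufa10 and 0.85 for Ndufs3. It was 0.67 for Ndufb5, 0.67 for Sdhd, 0.55 for Ndufa9 and 0.51 for Ndufs8. KOb was lower for Cox6a1, with -0.62. The sort gate and the degree of deletion differ together between KOb and KOa, and cannot be told apart. The part of either in these differences was not tested. Where the ratios against FFa were not themselves called, their signs are a description.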

How the results depend on the processing

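No paired analysis was possible because the deposited table holds no value per library, and for the same reason leaving out a library was not run. Across the alternatives, 66 values stayed close to those reported and 18 moved, by a wide tolerance. A median or sum counted as close if it shifted by no more than the median implied standard error of single genes. The 10 rises in KOb against KOa that became 7 at a q threshold of 0.01 counted as close. So did the log2 ratio of summed complex IV FPKM in KOb against KOa, -0.34, and -0.19 without its most abundant member. When the authors' statistic was taken as standard normal and its p adjusted over all tested results, 14 of the 38 member calls remained, as did 2169 of 7042 over all genes. The members higher and lower then numbered 2 and 5 in KOa against FFa, 0 and 3 in KOb against FFa, and 3 and 1 in KOb against KOa. For the count of 0 rises, 5 members passed an unadjusted normal p below 0.05 and 12 an unadjusted Cuffdiff p. At a q threshold of 0.01, 3 members were lower in KOa against FFa, 2 were higher and 1 lower in KOb against FFa, and 1 was lower in KOb against KOa. Without the members that have a pseudogene copy, an alternative chosen after seeing the data, 3 were higher and 5 lower in KOa against FFa, 3 higher and 4 lower in KOb against FFa, and 6 higher and 1 lower in KOb against KOa. Rescaling to the sum outside the globins moved the median log2 ratio of members to 0.47 in KOa against FFa and 0.50 in KOb against FFa, by shifting every gene of a comparison alike, so directions against FFa hold on the deposited scale. The log2 ratio of summed complex III FPKM in KOb against FFa was -0.06, and 0.04 without its most abundant member. Adjusting within a comparison gave 8 rises in KOb against FFa in place of 6. Library depth is unknown, so no limit from counts can be given.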
